A study of Mus musculus with 8 samples.

Results

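The genes described here are 9 markers of adult neurogenesis and of immature granule neurons: Mki67, Top2a, Eomes, Neurod1, Sox4, Sox11, Igfbpl1, Dcx and Draxin. They were taken by symbol from the table, as genes known from dividing progenitors and young neurons of the dentate gyrus. All 9 were found among the 25834 genes of the count table, and all 9 had enough reads to be tested, among 16251 genes in all. Hippocampal RNA of 8 male mice was sequenced, 4 of them controls and 4 SAP97-cKO, with a separate library for each. SAP97-cKO mice are Nestin-cre+/-; SAP97 fl/fl animals, in which Cre under the Nestin promoter deletes floxed Dlg1, the gene for SAP97, in neural progenitors and so in the neurons and glia that descend from them. Controls were male littermates that were Nes-cre+/-, SAP97 fl/fl or wild-type, and the sources used here do not give which of these each control library came from, or the age of the sequenced mice. The total count was 37388177 to 37416649 per control library and 37391907 to 37426572 per SAP97-cKO library.

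New granule neurons are made throughout life in the subgranular zone of the rodent dentate gyrus. Radial glia-like stem cells give rise to intermediate progenitors that divide and express Eomes (also called Tbr2). Their daughters switch on Neurod1 and the SoxC factors Sox4 and Sox11, then Dcx, a microtubule-binding protein of migrating and growing young neurons, and lose Dcx as they mature into granule neurons that express Prox1 and Calb1. Mki67 and Top2a mark dividing cells of any type. Igfbpl1 encodes a secreted protein related to the IGF-binding proteins and Draxin a secreted axon guidance protein, and both are found in neuroblasts.

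The promoter windows of 4 of these genes are shown, from 250 bases before to 50 bases after the annotated start, read 5′ to 3′ on the strand of the gene (RefSeq, GRCm38.p6). Mki67 and Top2a are shown because they are the genes of dividing cells, whose promoters are known for CCAAT boxes and for the cell cycle homology region. Eomes and Dcx are shown because they had the largest differences between genotypes. Capitals mark 3 motifs that were searched on both strands, so that a match on the opposite strand is printed as its reverse complement. These were the CCAAT box, the core TTTGAA of the cell cycle homology region, and the letters ACAAAG, which the HMG box of SOX proteins can bind. No motif overlapped another in these windows.
Mki67, chr7:135716330-135716629, minus strand: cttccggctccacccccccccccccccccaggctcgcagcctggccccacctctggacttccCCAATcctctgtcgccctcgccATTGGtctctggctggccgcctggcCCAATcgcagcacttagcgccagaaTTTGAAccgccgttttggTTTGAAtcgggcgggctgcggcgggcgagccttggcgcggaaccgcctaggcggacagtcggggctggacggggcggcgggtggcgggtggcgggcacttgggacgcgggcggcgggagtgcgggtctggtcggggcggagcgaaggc
Top2a, chr11:99024140-99024439, minus strand: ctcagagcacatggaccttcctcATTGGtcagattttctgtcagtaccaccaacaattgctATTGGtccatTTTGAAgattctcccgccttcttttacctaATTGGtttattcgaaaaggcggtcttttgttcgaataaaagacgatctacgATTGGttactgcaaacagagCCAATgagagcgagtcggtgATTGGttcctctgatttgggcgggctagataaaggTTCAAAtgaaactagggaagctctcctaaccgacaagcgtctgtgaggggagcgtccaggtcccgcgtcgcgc
Eomes, chr9:118477939-118478238, plus strand: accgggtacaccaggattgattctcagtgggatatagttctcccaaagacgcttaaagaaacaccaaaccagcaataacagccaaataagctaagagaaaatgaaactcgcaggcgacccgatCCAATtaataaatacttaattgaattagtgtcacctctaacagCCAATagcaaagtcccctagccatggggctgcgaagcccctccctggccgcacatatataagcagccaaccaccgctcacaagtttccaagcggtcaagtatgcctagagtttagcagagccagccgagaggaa
Dcx, chrX:143933075-143933374, minus strand: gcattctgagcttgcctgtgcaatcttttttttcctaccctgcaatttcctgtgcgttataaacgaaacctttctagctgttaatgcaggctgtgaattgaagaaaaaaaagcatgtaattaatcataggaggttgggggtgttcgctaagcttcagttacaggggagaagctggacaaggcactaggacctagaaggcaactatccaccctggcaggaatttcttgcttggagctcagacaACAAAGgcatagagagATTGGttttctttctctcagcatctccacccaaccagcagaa

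The Mki67 window held 3 CCAAT boxes and 2 matches to TTTGAA and the Top2a window 6 and 2. Of 32851 such windows of mouse genes, 37.4% held the CCAAT box. The TTTGAA core was in 17.9% of them, and 6.95% held both. ACAAAG occurred in 18.7% of all windows. It was found in 1 copy in the Dcx window shown, in no copy in the window of the other annotated Dcx start, and in 2 copies in the Draxin window. Eomes had 2 CCAAT matches, Sox4 had 4, Sox11 had 1 and each Dcx window had 1, and Sox11 also held 1 TTTGAA. The sources used here held no window for Igfbpl1, so it was not searched. In the Neurod1 window none of the 3 motifs was found. These matches describe the letters of the windows only.

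Dlg1 was lower in every SAP97-cKO library (2009 to 3065 TMM-normalized counts) than in every control library (3983 to 4691), with a log2 fold change of -0.86 ± 0.12 (SE; FDR 0.143, edgeR). Here and below the FDR is the p-value adjusted by Benjamini-Hochberg over all genes tested, and SE is the standard error. The Dlg1 counts cover the whole gene, and for a single exon of it the study reports a far larger drop in these samples. Of the hippocampal markers, the granule neuron gene Prox1 had 2435 to 6466 normalized counts per library and the CA1 gene Wfs1 4944 to 7788, so markers of hippocampal neurons were present in all 8 libraries.

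None of the 9 neurogenesis genes passed the FDR of 0.25 that the study uses, where 0.295% of all genes tested passed. At an unadjusted p under 0.05 edgeR placed 1 of the 9 lower, Eomes, beside 7.01% of all genes tested, and 1 of the 9 higher, Dcx, beside 4.73% of all genes tested. The median log2 fold change of the 9 was 0.04, beside -0.01 over all genes tested. Under other settings the count of the 9 genes at an unadjusted p under 0.05 was in some cases lower. It was 1 (Dcx) with limma-voom and with the choroid plexus covariate described with Eomes, beside 11.5% of all genes tested in both, 1 (Dcx) with the meningeal covariate, beside 3.77%, and 1 (Dcx) without control replicate 2, beside 8.53%. It was 1 (Eomes) without SAP97-cKO replicate 2, beside 11.9%, and none without the 3 libraries of most choroid plexus RNA, beside 6.08%. In each of the 9 genes the control and SAP97-cKO libraries overlapped, while all SAP97-cKO libraries were above all controls in 2.78% of all genes tested and below them in 3.47%. In bulk tissue, fewer cells of a type and less RNA per cell cannot be told apart, and this holds for every gene described here.

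**Figure D1:**
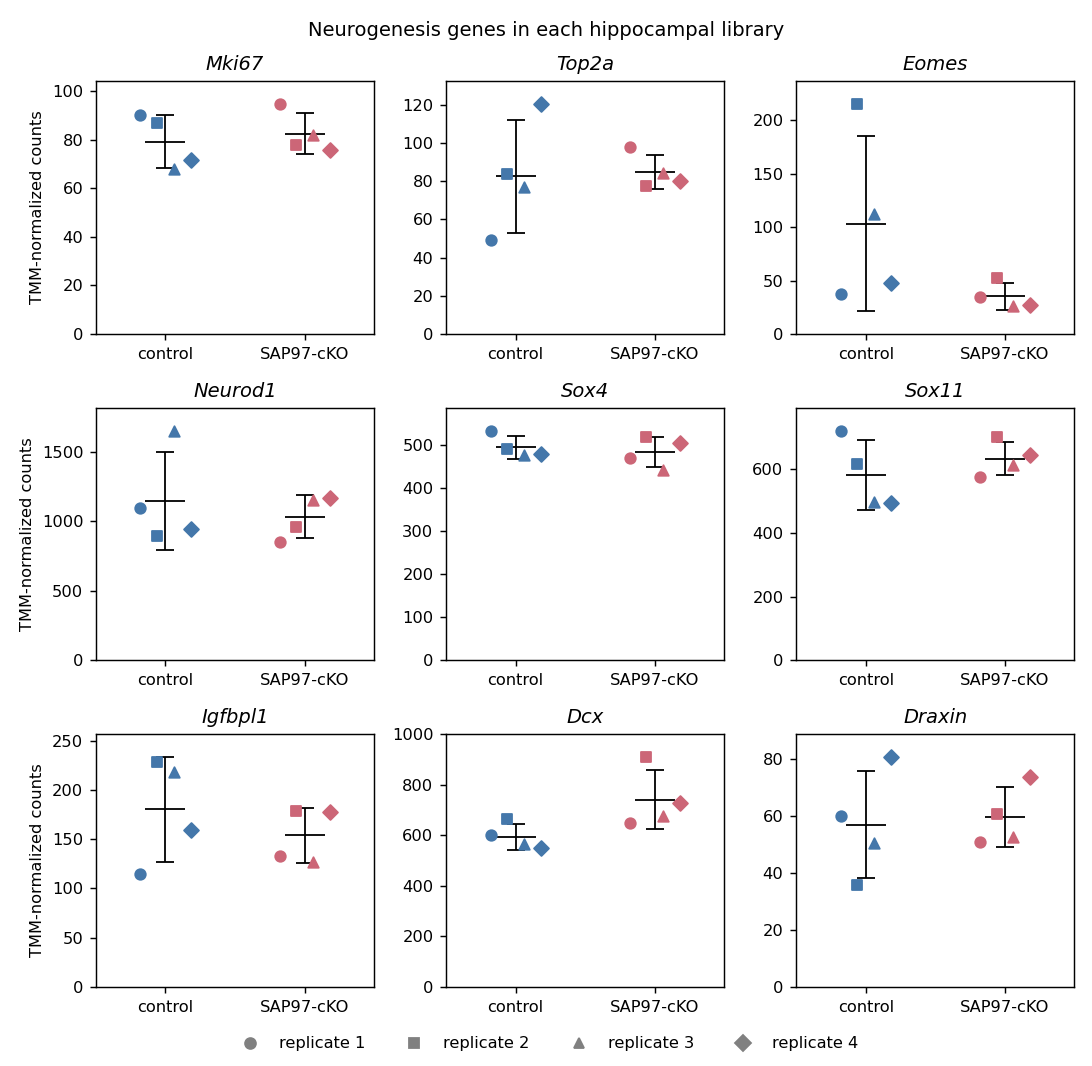
TMM-normalized counts of the 9 genes in each of the 4 control (blue) and 4 SAP97-cKO (red) hippocampal libraries, with marker shapes for replicate numbers and black bars for the mean ± SD. The groups overlap in every panel, Eomes is highest in control replicates 2 and 3, and Dcx is highest in SAP97-cKO replicate 2.

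**Figure D2:**
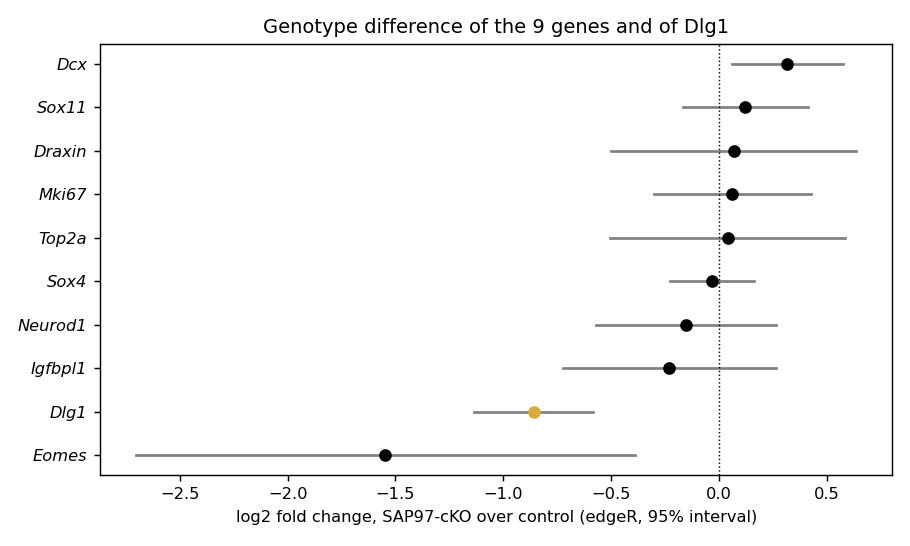
Log2 fold change (SAP97-cKO over control, points) of the 9 genes and of Dlg1 (yellow) with its 95% interval from edgeR (lines). The intervals of Eomes, Dlg1 and Dcx leave out 0, and the interval of Eomes is the widest.

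Proliferation was measured by Mki67 (Ki-67, a protein of the nuclei and chromosomes of cycling cells) and Top2a (the DNA topoisomerase of dividing cells). Mki67 (ENSMUSG00000031004; chromosome 7 of GRCm38, 135689784 to 135716361, minus strand) had 90.05, 86.7, 68.0 and 71.8 normalized counts in control replicates 1 to 4 and 94.7, 77.6, 82.1 and 75.8 in SAP97-cKO replicates 1 to 4. All 8 values lay close together and the groups were interleaved. The means were 79.1 ± 10.9 in the control mice against 82.5 ± 8.52 in the SAP97-cKO mice (SD, n = 4 each), a log2 fold change of 0.06 ± 0.16 (SE; FDR 0.896, edgeR) with a 95% interval of -0.30 to 0.43. The interval spans folds of 0.811 to 1.34. In both groups the spread was near that of counting alone, with a coefficient of variation of 13.7% beside 11.2% expected from counting in controls and 10.3% beside 11.0% in SAP97-cKO.

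Top2a (ENSMUSG00000020914; chromosome 11, 98992943 to 99024189, minus strand) had 49.0, 83.7, 76.7 and 120.4 normalized counts in controls and 97.8, 77.6, 84.1 and 79.9 in SAP97-cKO. Control replicate 1 was the lowest of the 8 and control replicate 4 the highest, and all SAP97-cKO values fell between them. The log2 fold change was 0.04 ± 0.25 (SE; 95% interval -0.50 to 0.59; FDR 0.958, edgeR). Without control replicate 1 it was -0.14, and without SAP97-cKO replicate 1 it was -0.03, both of the opposite sign. Without control replicate 4 it was 0.28.

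Other cell cycle genes gave no call either. Of 12 DNA replication genes (the Mcm helicase subunits, Pcna and others), all were tested, 10 had a log2 fold change below 0, none passed the FDR of 0.25 and none had an unadjusted p under 0.05. Their median log2 fold change was -0.15. Pcna, the sliding clamp of DNA polymerase and per length the most abundant of them, had 1666 ± 221 normalized counts in the control mice against 1556 ± 42.1 in the SAP97-cKO mice (SD, n = 4 each; log2 fold change -0.10 ± 0.090 SE). The smallest p-values of the list were those of Tyms, thymidylate synthase (log2 fold change -0.37 ± 0.24 SE, FDR 0.545, edgeR), and of Mcm7 (-0.14 ± 0.092 SE, FDR 0.560, edgeR). Of 15 mitosis genes 14 were tested, 7 were below 0 and 7 above, none was called and none had an unadjusted p under 0.05, with a median of 0.03. Ccna2, cyclin A, had the smallest p there (-0.45 ± 0.30 SE, FDR 0.558, edgeR), followed by Nusap1, a spindle protein (-0.29 ± 0.20 SE, FDR 0.571, edgeR).

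Eomes, the T-box factor of intermediate progenitors (ENSMUSG00000032446; chromosome 9, 118478212 to 118486132, plus strand), had the largest difference of the 9 genes. It had 37.0, 215, 113 and 47.6 normalized counts in control replicates 1 to 4 and 34.6, 52.8, 26.3 and 27.0 in SAP97-cKO replicates 1 to 4. Control replicates 2 and 3 stood above the other 6 libraries, and control replicates 1 and 4 lay within the range of SAP97-cKO. The SAP97-cKO mean was 34.1% of that of controls. The log2 fold change was -1.55 ± 0.52 (SE; 95% interval -2.70 to -0.39; FDR 0.352, edgeR), and the exact two-sided permutation test over the 70 assignments of libraries gave p = 0.114. DESeq2 placed Eomes past the FDR of 0.25 (adjusted p = 0.0958), where it called 3.84% of the genes tested as lower. Without control replicate 2 the log2 fold change of Eomes was -0.90 ± 0.41 (SE; FDR 0.586, edgeR), and without control replicate 1 it was -1.82 ± 0.46 (SE), where its adjusted p from edgeR was 0.184 and 5.83% of all genes tested were called as lower.

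The 3 libraries with the highest Eomes also held the most choroid plexus RNA. Ttr, transthyretin, the most abundant gene of the choroid plexus list, had 40098, 232258, 129444 and 4705 normalized counts in controls and 18275, 79675, 45711 and 2158 in SAP97-cKO. The 3 libraries with the most Ttr, control replicates 2 and 3 and SAP97-cKO replicate 2, were also the 3 with the most Eomes. Below these the orders differed. SAP97-cKO replicate 3, with 45711 normalized counts of Ttr, had the lowest Eomes of all 8 libraries (26.3). Control replicate 4, with 4705 of Ttr, had more Eomes (47.6). All 8 choroid plexus genes were tested and had log2 fold changes of -1.69 to -1.03 with a median of -1.48, none passing the FDR of 0.25 and none at an unadjusted p under 0.05. None of the 8 was at 0 in any library, and their summed level ran from 3548 to 252236 normalized counts. With the mean level of the list as a covariate, the log2 fold change of Eomes was -0.84 ± 0.40 (SE; FDR 0.441, edgeR). With the 3 libraries left out, which leaves 2 controls and 3 SAP97-cKO, it was -0.52 ± 0.32 (SE; FDR 0.722, edgeR). As the same 3 libraries hold the most Eomes, this omission takes away the highest Eomes values by construction, and choroid plexus RNA and Eomes cannot be told apart by it.

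Ebf3, a transcription factor of the Cajal-Retzius cell list, followed the same order in its highest libraries. It had 92.0, 266, 247 and 81.5 normalized counts in controls and 73.3, 100.5, 70.9 and 60.2 in SAP97-cKO, which gave a log2 fold change of -1.17 ± 0.39 (SE; FDR 0.348, edgeR). Of the 6 Cajal-Retzius genes, Ebf3 was the only one at an unadjusted p under 0.05, beside 7.01% of all genes tested as lower. None of the 6 passed the FDR of 0.25, and the median was -0.46. Of the 6, 4 were below 0 and 2 above. Reln (reelin) and Ndnf, those above, had log2 fold changes of 0.37 ± 0.18 (SE) and 0.10 ± 0.081 (SE). Lhx1, Lhx5 and Trp73, named after their values were seen, had -0.95, -0.72 and -0.20. Of 6 ependymal genes all had log2 fold changes below 0 (median -0.53), none was called and 2 had an unadjusted p under 0.05, Rarres2 (-0.53 ± 0.18 SE) and Tmem212 (-0.70 ± 0.28 SE), beside 7.01% of all genes tested as lower. Foxj1, the transcription factor of motile cilia and the most abundant of them, had 400.2, 869.9, 934 and 541 normalized counts in controls and 470.4, 610.2, 436 and 369 in SAP97-cKO. The summed ependymal level was highest in control replicates 3 and 2, at 1947 and 1617 normalized counts, against 783 to 1193 in the other 6 libraries. The part of ependymal cells in the Eomes difference was not tested.

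**Figure D3:**
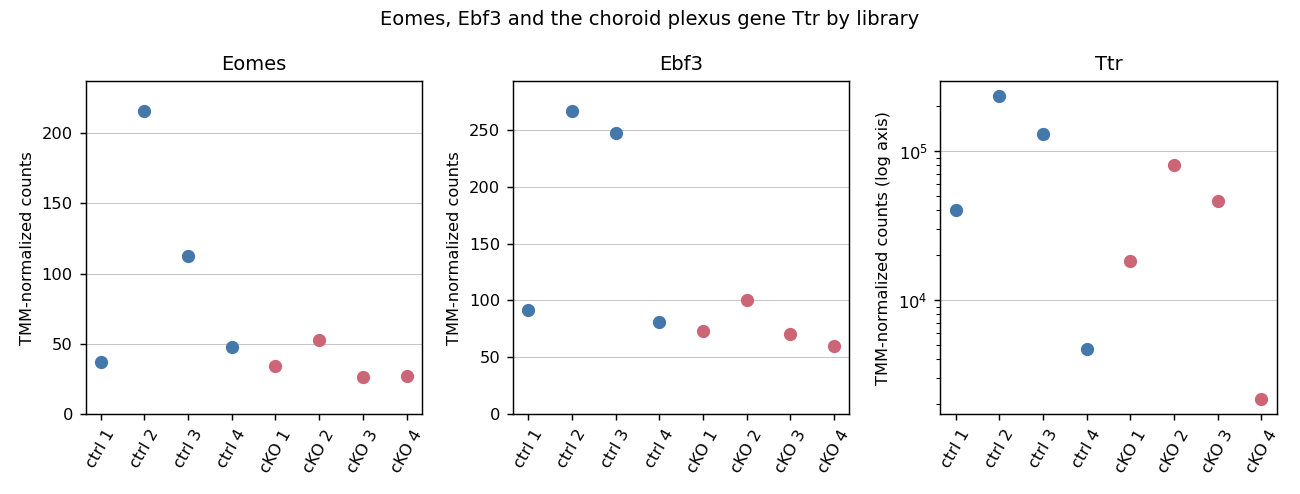
TMM-normalized counts of Eomes, Ebf3 (both linear axes) and Ttr (log axis) in each of the 8 libraries, controls in blue and SAP97-cKO in red. Control replicates 2 and 3 are the highest in all 3 panels, and SAP97-cKO replicate 2 is the highest of its group in all 3.

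Neurod1, a basic helix-loop-helix factor of late progenitors and young granule neurons that mature granule neurons also express (ENSMUSG00000034701; chromosome 2, 79452521 to 79456751, minus strand), had 1096, 892, 1652 and 942 normalized counts in controls and 849, 959, 1149.9 and 1168 in SAP97-cKO. Control replicate 3 was far above the rest, and the other 7 libraries were interleaved. The means were 1145 ± 349 (SD, n = 4) and 1031 ± 154 (SD, n = 4), with a log2 fold change of -0.15 ± 0.19 (SE; 95% interval -0.57 to 0.27; FDR 0.749, edgeR). Without control replicate 3 it was 0.09 ± 0.13 (SE; FDR 0.830, edgeR). Tbr1 and Neurod6 are neuronal transcription factors related to Eomes and Neurod1. Tbr1 had a log2 fold change of 0.15 ± 0.19 (SE; FDR 0.750, edgeR) and Neurod6 of 0.10 ± 0.13 (SE; FDR 0.764, edgeR).

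Of the SoxC factors, which drive neuronal differentiation genes in young neurons, Sox4 was the least variable of the 9 genes. Sox4 (ENSMUSG00000076431; chromosome 13, 28948919 to 28953713, minus strand) had 534, 490.3, 477 and 479 normalized counts in controls and 470.4, 519.6, 442 and 506 in SAP97-cKO. The coefficient of variation was 5.39% in controls and 7.26% in SAP97-cKO, beside 4.49% and 4.54% from counting alone. Its log2 fold change was -0.03 ± 0.088 (SE; FDR 0.899, edgeR) with a 95% interval of -0.23 to 0.16, which spans folds of 0.855 to 1.12. Sox11 (ENSMUSG00000063632; chromosome 12, 27334264 to 27342574, minus strand) had 722, 617, 497 and 494 normalized counts in controls and 577, 701, 614 and 645 in SAP97-cKO. The highest value and the lowest value of Sox11 were both from controls. The log2 fold change was 0.12 ± 0.13 (SE; 95% interval -0.17 to 0.41; FDR 0.700, edgeR).

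Sox12, the remaining SoxC gene, had 529 ± 19.6 normalized counts in the control mice against 629 ± 43.5 in the SAP97-cKO mice (SD, n = 4 each), a log2 fold change of 0.25 ± 0.081 (SE; FDR 0.347, edgeR). Each SAP97-cKO library was above each control library (p = 0.0286 by exact permutation, two-sided, which is the smallest p that 4 mice against 4 allow), as in 2.78% of all genes tested. Sox12 did not pass the FDR of 0.25.

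Igfbpl1 (ENSMUSG00000035551; chromosome 4, 45809468 to 45826923, minus strand) had 115, 228, 219 and 159 normalized counts in controls and 132, 178, 127 and 178 in SAP97-cKO. As with Eomes, the highest values were those of control replicates 2 and 3, while control replicate 1 was the lowest of all 8. The log2 fold change was -0.23 ± 0.22 (SE; 95% interval -0.72 to 0.26; FDR 0.675, edgeR). With the 3 libraries of most Ttr left out it was 0.10 ± 0.24 (SE; FDR 0.919, edgeR). The same 3 libraries held the most Igfbpl1, so this omission takes away its highest values by construction.

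Dcx (ENSMUSG00000031285; chromosome X, 143855842 to 143933311, minus strand) had, of the 9 genes, the largest difference in the higher direction. It had 599, 665, 566 and 548 normalized counts in controls and 649.7, 909.8, 677 and 727 in SAP97-cKO. Of the SAP97-cKO libraries 3 were above every control, and SAP97-cKO replicate 1 lay below control replicate 2. The means were 595 ± 51.2 (SD, n = 4) and 741 ± 117 (SD, n = 4), or 125% of control, and the exact two-sided permutation test gave p = 0.0571. The log2 fold change was 0.32 ± 0.12 (SE; 95% interval 0.06 to 0.58; FDR 0.371, edgeR). DESeq2 placed Dcx past the FDR of 0.25 (adjusted p = 0.225), where it called 2.91% of the genes tested as higher. Without SAP97-cKO replicate 2 the log2 fold change was 0.20 ± 0.097 (SE; FDR 0.436, edgeR). Without SAP97-cKO replicate 1 it was 0.38 ± 0.12 (SE), where its adjusted p from edgeR was 0.249 and 1.58% of all genes tested were called as higher.

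SAP97-cKO replicate 2, the library with the most Dcx, had the lowest sum of mature granule neuron genes. The summed level of 10 mature granule neuron genes was 18833 normalized counts there, against 24074 to 32369.8 in the other 7 libraries. Calb1, Pdzd2 and Plk5 of this list were not at their lowest in that library. All 10 were tested, none was called or had an unadjusted p under 0.05, and the median log2 fold change was 0.0048, with 5 below 0 and 5 above. C1ql2, a secreted C1q-like protein of mossy fibre synapses and per length the most abundant of them, had 2658 ± 310.4 normalized counts in the control mice against 2737 ± 916 in the SAP97-cKO mice (SD, n = 4 each). Stxbp6 and Pdzd2, the genes of the list with the smallest p-values, had log2 fold changes of -0.07 ± 0.15 (SE) and 0.16 ± 0.14 (SE). With the mean level of this list as a covariate, the log2 fold change of Dcx was 0.29 ± 0.094 (SE; FDR 0.323, edgeR).

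**Figure D4:**
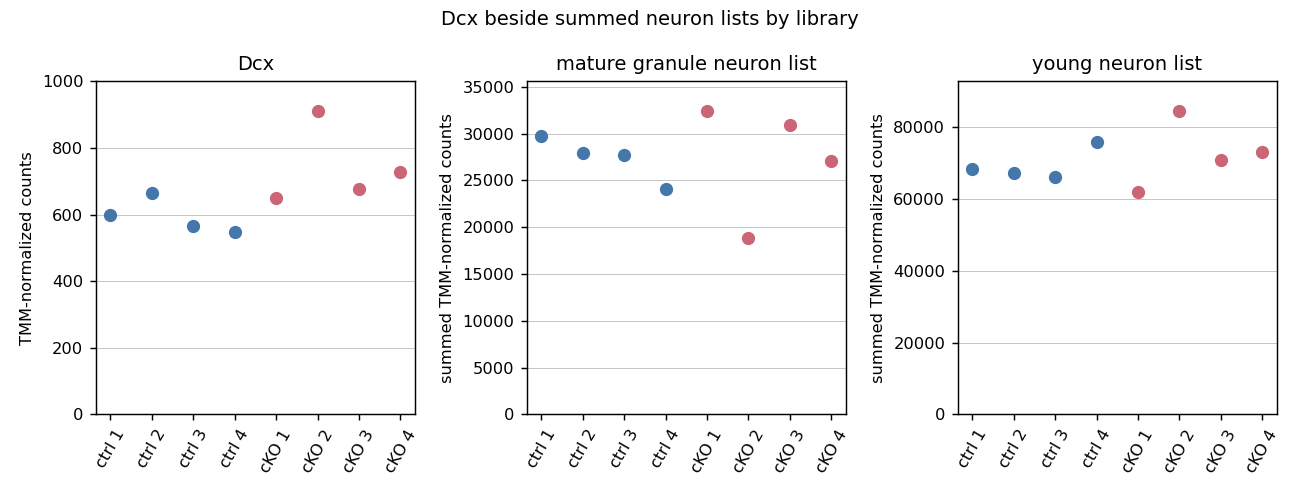
TMM-normalized counts of Dcx and summed TMM-normalized counts of the 10 mature granule neuron genes and the 16 young neuron genes in each of the 8 libraries, controls in blue and SAP97-cKO in red. SAP97-cKO replicate 2 is the highest for Dcx and for the young neuron list and the lowest for the granule neuron list.

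The doublecortin-like kinases share the microtubule-binding domains of Dcx and are abundant in mature neurons. Dclk1 had 25888 ± 1061 normalized counts in the control mice against 29147 ± 1872 in the SAP97-cKO mice (SD, n = 4 each), a log2 fold change of 0.17 ± 0.072 (SE; FDR 0.408, edgeR), with no overlap between the groups. Dclk3, named after its values were seen, also did not overlap (log2 fold change 0.22 ± 0.088 SE, FDR 0.399, edgeR). In the list of 14 relatives and binding partners, 11 had log2 fold changes above 0 and 3 below, none passed the FDR of 0.25, 4 had an unadjusted p under 0.05 in the higher direction (Sox12, Dcc, Dclk3 and Dclk1), beside 4.73% of all genes tested, and the median was 0.11. The 3 genes of this list whose groups did not overlap, all higher, were Sox12, Dclk1 and Dclk3, beside 2.78% of all genes tested. Top2b, the topoisomerase of non-dividing cells, had a log2 fold change of 0.06 ± 0.068 (SE; FDR 0.738, edgeR).

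Draxin (ENSMUSG00000029005; chromosome 4, 148098437 to 148130698, minus strand) had 60.03, 35.9, 50.5 and 80.6 normalized counts in controls and 50.9, 60.7, 52.7 and 73.7 in SAP97-cKO. Control replicates gave the lowest and the highest value, and the groups overlapped throughout. The log2 fold change was 0.07 ± 0.26 (SE; 95% interval -0.50 to 0.64; FDR 0.929, edgeR). Dcc, a netrin receptor that Draxin binds, had 549 ± 129.96 normalized counts in the control mice against 777 ± 129 in the SAP97-cKO mice (SD, n = 4 each; log2 fold change 0.50 ± 0.17 SE, FDR 0.359, edgeR), with overlapping groups.

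Of 16 further genes of young neurons, many of which mature neurons also express, 12 had log2 fold changes above 0 and 4 below, none passed the FDR of 0.25, and the median was 0.05. At an unadjusted p under 0.05 were Cd24a, a surface glycoprotein of neuroblasts and of ependymal cells (-0.29 ± 0.12 SE, FDR 0.404, edgeR), and Crmp1, a collapsin response mediator (0.21 ± 0.090 SE, FDR 0.413, edgeR), or 2 of 16 genes, beside 11.7% of all genes tested in either direction. Tubb3, neuronal tubulin, had a log2 fold change of 0.01 ± 0.098 (SE; FDR 0.986, edgeR). At the stem cell end, 9 of 10 neural stem cell genes were tested, 5 above 0 and 4 below, with a median of 0.18 and no call. Lpar1, a lysophosphatidic acid receptor that oligodendrocytes also express, had a log2 fold change of -0.63 ± 0.20 (SE; FDR 0.341, edgeR). It was the only one at an unadjusted p under 0.05, beside 7.01% of all genes tested as lower. Hes5, a Notch target, had 0.47 ± 0.22 (SE; FDR 0.433, edgeR) and Hopx, also an astrocyte gene, 0.23 ± 0.13 (SE; FDR 0.498, edgeR). All 8 mature oligodendrocyte genes had log2 fold changes below 0 (median -0.47), 5 of them at an unadjusted p under 0.05, beside 7.01% of all genes tested as lower, and none called. Their summed level was 210657 to 339384 normalized counts in controls and 164767 to 297497 in SAP97-cKO, and the part of oligodendrocytes in the value of Lpar1 was not tested.

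Neuroblasts of the subventricular zone and oligodendrocyte precursors share some of the 9 genes and were therefore checked. Of 7 subventricular neuroblast genes none was called or had an unadjusted p under 0.05, and their median log2 fold change was 0.01. Dlx1, an interneuron factor and per length the most abundant of them, had 1224 ± 70.7 normalized counts in the control mice against 1232 ± 180.5 in the SAP97-cKO mice (SD, n = 4 each), and Dlx2 and Sp9 had log2 fold changes of 0.22 ± 0.15 (SE) and 0.17 ± 0.12 (SE). Of 8 oligodendrocyte precursor genes none was called and the median was -0.05. Cspg4, the NG2 proteoglycan, was the only one at an unadjusted p under 0.05, beside 4.73% of all genes tested as higher, and its groups did not overlap, beside 2.78% of all genes tested. It had 575 ± 56.0 normalized counts in the control mice against 699 ± 45.8 in the SAP97-cKO mice (SD, n = 4 each; log2 fold change 0.28 ± 0.093 SE, FDR 0.348, edgeR). Pdgfra and Olig1 had log2 fold changes of 0.12 ± 0.081 (SE) and -0.14 ± 0.11 (SE). No gene of any list was at 0 in any library.

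**Figure D5:**
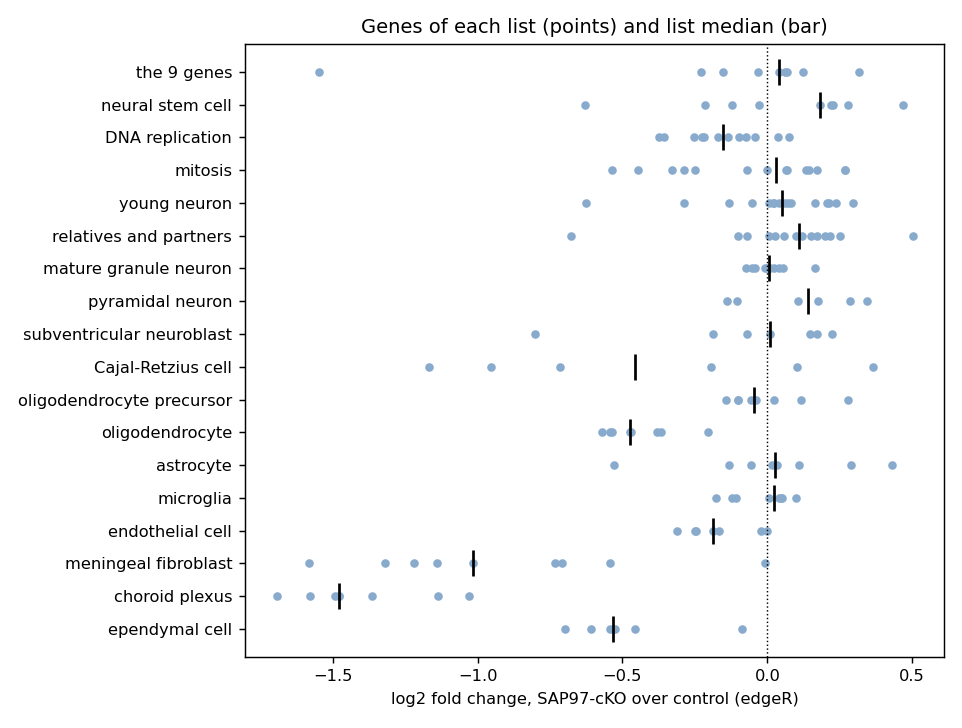
Log2 fold change (SAP97-cKO over control, edgeR) of each tested gene (points) in the 9 genes and in 17 further lists, with the median of each list as a black bar. Points of the 9 genes lie from -0.23 (Igfbpl1) to 0.32 (Dcx) except Eomes at -1.55, and the choroid plexus and meningeal fibroblast lists have the lowest medians (-1.48 and -1.01).

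The list that held most calls was that of meningeal fibroblasts, where 5 of 9 genes passed the FDR of 0.25 as lower, beside 0.283% of all genes tested. These were the matrix genes Ogn, Col1a2 and Col3a1 and the transporters Slc22a6 and Slc6a13. All 5 are among the genes that the study lists as differing in these same mice. As the list was chosen with those results known, its shares beside all genes tested are not an independent finding. Their values were Ogn (log2 fold change -1.32 ± 0.21 SE), Col1a2 (-1.01 ± 0.18 SE), Slc22a6 (-1.58 ± 0.30 SE), Col3a1 (-1.22 ± 0.23 SE) and Slc6a13 (-1.14 ± 0.24 SE). The summed level of the list was 6765, 6936, 4681 and 7041 normalized counts in controls and 2854, 4906, 4662 and 4549.8 in SAP97-cKO, and its most abundant gene, Dcn, had a log2 fold change of -0.01 ± 0.42 (SE). With the mean level of this list as a covariate, the log2 fold change of Dcx was 0.71 ± 0.24 (SE), that of Eomes -0.50 ± 1.11 (SE) and that of Neurod1 -0.78 ± 0.37 (SE), and each had an FDR of 0.9995. In 8 of the 9 genes of this list SAP97-cKO was below control without overlap, beside 3.47% of all genes tested, so the list and genotype cannot be told apart in this fit, and without the covariate the SE was 0.12 for Dcx and 0.52 for Eomes.

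Levels of the 9 genes were compared per exon length as RPKM (reads per kilobase of exon, scaled to library size), over all 8 libraries. Neurod1 was the highest at 10.7 ± 2.52 RPKM (SD, n = 8), followed by Sox4 at 2.73 ± 0.164, Sox11 at 1.96 ± 0.270, Dcx at 1.41 ± 0.242, Igfbpl1 at 1.37 ± 0.344, Eomes at 0.445 ± 0.420, Draxin at 0.299 ± 0.0725, Top2a at 0.248 ± 0.0598 and Mki67 at 0.215 ± 0.0245. Neurod1 and Sox4 did not overlap their next neighbour in this order. Sox11 was above Dcx in 8 of 8 libraries, but Dcx and Igfbpl1 did not differ beyond their spread, with Dcx the higher in 5 of 8. Eomes, Draxin, Top2a and Mki67 overlapped from one to the next, and Eomes was above Draxin in 3 of 8 libraries. The order of the means differed between genotypes. Igfbpl1 (1.48 RPKM) was above Dcx (1.26) in controls and below it in SAP97-cKO (1.26 against 1.57). The mean of Eomes was 0.664 RPKM in controls, above Draxin (0.292), and 0.226 in SAP97-cKO, below Draxin (0.306) and Top2a (0.252). These orders did not hold in every library. In control replicate 1 Igfbpl1 (0.947 RPKM) was below Dcx (1.27). Eomes was below Draxin in control replicates 1 (0.238 against 0.309) and 4 (0.306 against 0.414). It was above Draxin in SAP97-cKO replicate 2 (0.340 against 0.312).

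The spread within a group also differed among the 9 genes. In controls the coefficient of variation ran from 5.39% (Sox4) to 79.4% (Eomes). It was larger in controls than in SAP97-cKO for 7 of the 9 genes, or 77.8%, which was so for 60.2% of all genes tested. Sox4 and Dcx were the exceptions, and the higher spread of Dcx in SAP97-cKO (15.8% against 8.61%) came with the value of SAP97-cKO replicate 2.

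The genes of most similar profile over the 8 libraries were found by the root mean square difference of log2 CPM centred on the mean of each gene, among 13598 genes outside the 9. For Dcx they were Kif21b (0.064), Phf24 (0.069), Rims1 (0.069), Ildr2 (0.073) and Pde4d (0.075), where Dcx itself deviated from its mean by 0.216. Kif21b, for example, had 2121, 2084, 2029 and 1814 normalized counts in controls and 2312.5, 2981, 2330.2 and 2421 in SAP97-cKO, again highest in SAP97-cKO replicate 2. For Top2a they were Slc25a47 (0.104), 2900052L18Rik (0.108), Aif1 (0.111), Samsn1 (0.136) and Dnaic1 (0.139), beside 0.334 for Top2a itself. All 5 were lowest in control replicate 1 and, with 1 exception, highest in control replicate 4.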

How the data were processed

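RNA from 4 control and 4 SAP97-cKO hippocampi was sequenced, 1 library per mouse. Per the labels and the study's methods, the authors used STAR 2.5.3a and the mouse build mm10 (GRCm38.p5), resampled the aligned reads to a common depth with their PORT pipeline and counted genes, and the deposited values are whole-number counts. Whether strand was used is not stated in the sources used here. The 3 deposited columns of the authors' own comparison (fold change, p-value and q-value) were not used.

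Genes were kept with edgeR's filterByExpr (minimum count 10), which removed 9583 genes and kept 99.9% of counts. Libraries were scaled by TMM (factors 0.964 to 1.03) and tested by quasi-likelihood in edgeR 4.0.16 (R 4.3.3), adjusting p-values over 16251 genes by Benjamini-Hochberg to an FDR of 0.25. The standard error is the log2 fold change divided by the square root of F. The test was tested on simulated counts with the same dispersion for every gene, which does not cover genes as variable between mice as Eomes. RPKM used the merged exon length of GENCODE M21, which matched 25696 identifiers. No pair of libraries was a repeat (chi-square per gene 9.08 to 67.2, where counting noise gives about 1), and p-values measure the spread between these mice.

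Alternatives were limma 3.58.1 (voom), DESeq2 1.42.0, other scalings and filters, the replicate block, list covariates and leaving out libraries. The 9 genes and the 17 lists were chosen with earlier results of these data known. Named from a list were genes past the FDR, or else its 2 smallest p-values, and its most abundant gene per length, with Dclk1, Sox12, Tbr1 and Top2b. The similar profiles are the 5 nearest among genes with a mean of at least 50 counts (log2 CPM, prior count 2). Some genes that this rule names are not reported here. Prox1, Calb1, Plk5, Dclk3, Lhx1, Lhx5 and Trp73 were named after their values were seen. Plots were drawn with matplotlib 3.10.9.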

Additional observations from a re-analysis of the deposited data

Results flagged for a closer look

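In 62 genes, 124 groups of 4 libraries were checked for a library far from the others, where the gap to the nearest library, as a share of the range of the group, passed Dixon's 95% critical value. Chance gives about 1 in 20 groups, and 4 were found, none of them in the 9 neurogenesis genes. In controls, replicate 4 stood above the others for Tubb3 (10935 normalized counts, others 9689.7 to 9785) and C1qa (1877, others 1332 to 1395), and replicate 3 stood below them for Slc6a13 (383, others 494 to 515). In SAP97-cKO, replicate 1 stood above the others for Slc1a2 (153086, others 123246 to 126913).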

How the results depend on the processing

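At the FDR of 0.25 edgeR called 46 genes lower and 2 higher. DESeq2 called 588 and 445, no scaling 94 and 1, no filter on low counts 89 and 15, the granule neuron covariate 68 and 10, the choroid plexus covariate 15 and 1, leaving out the 3 libraries with the most Ttr (chosen after seeing the data) 22 and 1, and the meningeal covariate 0 and 0 (613 genes at an unadjusted p under 0.05, edgeR). An FDR of 0.05 left 0 and 0, with 1907 genes at an unadjusted p under 0.05. Leaving out 1 library gave 0 to 960 lower and 0 to 715 higher, with 960 and 715 without control replicate 1 and 450 and 261 without SAP97-cKO replicate 1. It gave 0 and 0 without control replicate 2, SAP97-cKO replicate 3 or SAP97-cKO replicate 4 (1403, 1259 and 1167 genes at an unadjusted p under 0.05, edgeR). Of the 9 genes, 2 were at an unadjusted p under 0.05, 1 with limma-voom or with the meningeal or choroid covariate, 0 without the 3 libraries, and 1 to 2 when 1 library was left out (1 without control replicate 2 or SAP97-cKO replicate 2). The causes were not tested.

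Over 171 alternative values of the 9 log2 fold changes, 154 kept their direction and 4 passed the FDR of 0.25: both Eomes and Dcx with DESeq2, Eomes without control replicate 1 and Dcx without SAP97-cKO replicate 1. Eomes ran from -1.82 to -0.90 and Dcx from 0.20 to 0.38 when 1 library was left out, and neither changed sign under any alternative, nor did Sox11. Over the same omissions Mki67 ran up to 0.13, Top2a and Draxin up to 0.28 and 0.29 (both without control replicate 4), Neurod1 down to -0.25 and Sox4 down to -0.067. Sox11 ran from 0.052 (without control replicate 4) to 0.24 (without control replicate 1), and Igfbpl1 from -0.39 (without control replicate 1) to -0.096 (without control replicate 2). Of genes near 0, Top2a changed sign without scaling (-0.0088), with the meningeal (-0.13) or choroid (-0.033) covariate and without control replicate 1 (-0.14) or SAP97-cKO replicate 1 (-0.029). Draxin did so with the meningeal (-0.35) or choroid (-0.11) covariate, without the 3 libraries (-0.24), and without control replicate 2 (-0.098) or SAP97-cKO replicate 4 (-0.049). Sox4 did so with the meningeal covariate (0.010) and without control replicate 1 (0.0069) or SAP97-cKO replicate 3 (0.016), Neurod1 without the 3 libraries (0.063) or control replicate 3 (0.092), Igfbpl1 without the 3 libraries (0.097), and Mki67 without SAP97-cKO replicate 1 (-0.0044).

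With the replicate number as a block, 234 genes were lower and 22 higher, and 2 of the 9 genes were at an unadjusted p under 0.05, beside 10.8% of all genes tested. The deviations of same-numbered libraries correlated at -0.06, 0.20, 0.09 and 0.26 across genes. Since 2 of these are not over 0.1 and no source says what the number marks, the libraries were not treated as paired. That 3 of 4 controls correlated best with their own number is a hint of pairing from the data, not from the design. Counting noise alone gives about 11% at the level of Mki67 and Top2a, which limits what can be seen in them.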

Other observations

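Other cells of the hippocampus were covered by lists not yet described. Of 6 pyramidal neuron genes, 4 had log2 fold changes above 0 and none passed the FDR of 0.25 (median 0.14). Only Wfs1, an endoplasmic reticulum protein of CA1 neurons, had an unadjusted p under 0.05, beside 4.73% of all genes tested as higher. Wfs1 had 5423 ± 383 normalized counts in the control mice against 6879 ± 1043 in the SAP97-cKO mice (SD, n = 4 each; log2 fold change 0.34 ± 0.11 SE, FDR 0.347, edgeR). Rgs14, a CA2 gene, was at 0.17 ± 0.097 (SE) and Bok at -0.10 ± 0.094 (SE). Of 8 astrocyte genes, Gjb6, a connexin of astrocytes, passed the FDR as lower, beside 0.283% of all genes tested, with 2889.7 ± 347 and 2004 ± 276 normalized counts (SD, n = 4 each; log2 fold change -0.53 ± 0.11 SE, FDR 0.2496, edgeR), 2 others had an unadjusted p under 0.05 in the higher direction, beside 4.73% of all genes tested, and the median of the list was 0.02. Slc1a2, a glutamate transporter, was at 0.11 ± 0.092 (SE).

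Of 8 microglia genes none was called or had an unadjusted p under 0.05 (median 0.02), with Tmem119 at -0.18 ± 0.14 (SE) and C1qa at -0.12 ± 0.12 (SE). All 7 endothelial genes had log2 fold changes below 0 (median -0.19), none was called and none had an unadjusted p under 0.05. Ly6c1 was at -0.31 ± 0.14 (SE), Esam at -0.25 ± 0.14 (SE) and Cldn5, a tight junction claudin, at -0.25 ± 0.15 (SE). In the oligodendrocyte list the smallest p was that of Cldn11 (-0.57 ± 0.19 SE, FDR 0.350, edgeR), and in the choroid plexus list those of Otx2 (-1.48 ± 0.67 SE) and Folr1 (-1.49 ± 0.81 SE).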
